A study of Arabidopsis thaliana with 28 samples.

Results

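DFR encodes dihydroflavonol 4-reductase, the enzyme that turns dihydroflavonols into leucoanthocyanidins. It stands where the flavonoid pathway of Arabidopsis divides: flavonol synthases use the same dihydroflavonols to make flavonols, whereas DFR commits them to anthocyanins in vegetative organs and to proanthocyanidins in the seed coat. The gene is classed with the late anthocyanin genes, which are known to be switched on by MYB, bHLH and WD40 regulators working as a complex, and light, sugar and drought are known to raise anthocyanin in Arabidopsis leaves. Its transcript was followed here with 1 probe set (249215_at, locus AT5G42800), found by its gene annotation among 22810 probe sets on the array. It is 1 of 13356 genes represented by a probe set of a single gene.

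The samples were roots and shoots of wild-type Arabidopsis thaliana Col-0 seedlings grown on Murashige and Skoog medium at 24 °C in 16 h days. When the plants were 16 days old and had been in the light for 3 h, dry air was blown over them for 15 min, until the loss of fresh weight was 10%, and they were then enclosed in vessels placed in a climate chamber. Roots and shoots were taken at 0.25, 0.5, 1, 3, 6, 12 and 24 h, with 2 arrays for each organ and time, which makes 14 groups and 28 arrays. Every group had been dried and no undried plants were analysed here, so 0.25 h served as the baseline, and time after drying and time of day cannot be told apart except that the last samples were taken at about the hour of the first. Nothing in the labels tells if replicate arrays were hybridised with RNA of separate cultures, so the p-values here speak of the spread among these arrays, which may be technical.

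The values are array signals on a linear scale, with each array scaled by the authors to a common mean, and a group mean is given with its SD over 2 arrays. Changes and differences are on the scale of log2(signal + 1.93), which understates changes of dim transcripts. A change was called when its adjusted p, from limma with Benjamini-Hochberg adjustment over the 18190 probe sets tested, was under 0.05. Precision is limited by the few arrays, and the standard error of any DFR change between 2 groups was 0.36 on the log2 scale, and all comparisons with 0.25 h in an organ share the same 2 baseline arrays.

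The organ labels were checked with marker genes. Of 24 root markers listed, 6 could be matched to a probe set by the annotation used, which gave no gene for 8730 probe sets. Their summed signal was 519 to 1472 on root arrays and 36.5 to 66.5 on shoot arrays. On every root array 5 of the 6 lay above all shoot arrays, while AT1G49570 overlapped (7.27 to 185 in roots, 13.6 to 29.3 in shoots). Of 26 shoot markers, 4 were matched, with a summed signal of 189 to 580 on root arrays and 15514 to 22188 on shoot arrays. All 4 were higher on every shoot array than on any root array. Replicates correlated at 0.978 to 0.984 over all probe sets in 12 groups, but only at 0.961 in shoots at 0.5 h and 0.963 in shoots at 1 h. In these last groups replicate 1 of 0.5 h was most like replicate 2 of 1 h (r = 0.979), and replicate 2 of 0.5 h most like replicate 1 of 1 h (r = 0.980). DFR comparisons made with these 4 early shoot arrays are therefore given as labelled and also with the 4 arrays as a single group. The single group counts the 4 arrays as separate replicates although they matched in pairs across the labels, so its standard error may be too small.

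DFR gave a lower signal in roots than in shoots at every time. In shoots it rose at 3 h, to 4.79 times the 0.25 h mean, overlapped the 0.25 h arrays at 6 h, and was higher than at 0.25 h again at 12 h. Both arrays also lay above those of 0.25 h at 0.5, 1 and 24 h. The means there were 2.18, 2.16 and 2.26 times that of 0.25 h, and these changes were not called. Nor was the rise from 6 h to 12 h. In roots the signal was low throughout and no change from 0.25 h was called.

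In shoots the 2 arrays gave DFR signals of 39.7 and 32.8 at 0.25 h, and this was the lowest group, with a mean of 36.2 ± 4.84 (SD, n = 2). At 0.5 h the arrays read 106 and 52.2, and the mean was 79.0 ± 37.8. At 1 h they read 79.5 and 76.8, with a mean of 78.2 ± 1.94. The 0.5 h replicates thus differed by 2.03 times, the widest gap of any shoot group, whereas those of 1 h nearly coincided. The 3 h arrays were the 2 highest of the 14 shoot arrays, at 210 and 137, for a mean of 173 ± 51.2. At 6 h the signals were 63.1 and 36.8, with a mean of 50.0 ± 18.6, and the lower of these lies between the 0.25 h arrays. At 12 h the signals were 94.1 and 101, with a mean of 97.4 ± 4.57. At 24 h, close to the clock time of the baseline, they were 98.6 and 65.2, and the mean was 81.9 ± 23.6.

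From high to low, the shoot means ran 3 h, 12 h, 24 h, 0.5 h, 1 h, 6 h and 0.25 h. The arrays of 3 h lay above those of 12 h, and those of 1 h lay above those of 6 h. The other neighbours in this order overlapped and did not differ beyond their spread.

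**Figure D1:**
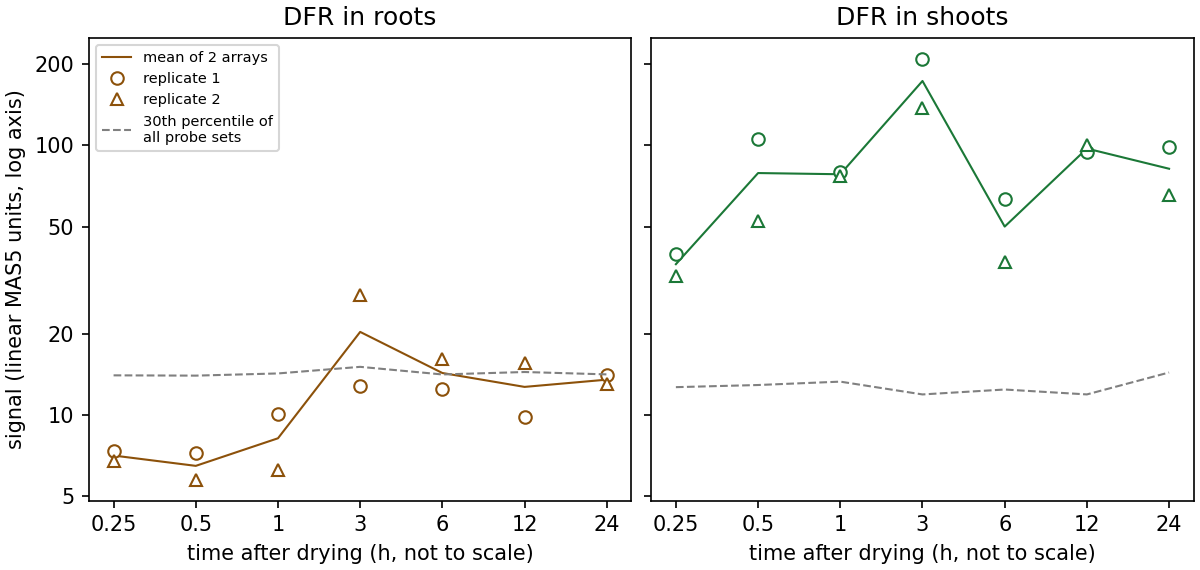
DFR signal on each array by time after drying, roots at left and shoots at right, on a log axis; circles and triangles are the 2 replicates, the solid line joins group means and the dashed line is the mean 30th percentile of all probe sets on the arrays of each group. Every shoot array lies between 32.8 and 210, above the dashed line and above all root arrays, while 11 of 14 root arrays lie at or below their own array's 30th percentile.

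Against the baseline, DFR rose in shoots by 2.18 ± 0.36 (SE) at 3 h (limma, adjusted p = 0.000134), with signals of 210 and 137 at 3 h against 39.7 and 32.8 at 0.25 h. Only 1.66% of tested probe sets changed by more in that comparison, in which 28.8% of tested probe sets were called. At 12 h DFR rose by 1.38 ± 0.36 (limma, adjusted p = 0.00692), in a comparison with 26.3% of probe sets called. That call was lost without replicate 2 of the 0.25 h shoots (1.25, adjusted p = 0.0583) and against the mean of 0.25 h and 24 h (0.83, adjusted p = 0.055), whereas the call at 3 h was kept when any 1 of the 28 arrays was left out (1.87 to 2.48).

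The other shoot times did not pass the test. The change was 1.01 at 0.5 h (limma, adjusted p = 0.0901, with 7.94% of probe sets called) and 1.08 at 1 h (limma, adjusted p = 0.0696, with 8.3% called). The change at 0.5 h passed without replicate 2 of 0.5 h (1.502, adjusted p = 0.045), and that at 1 h without either 0.5 h shoot array (adjusted p = 0.0417 and 0.0415). With the 4 early shoot arrays as a single group, and so counted as 4 separate replicates, DFR rose by 1.04 ± 0.30 against 0.25 h (limma, adjusted p = 0.0253). At 6 h the change was 0.40, with a 95% interval of -0.35 to 1.15 (limma, adjusted p = 0.434, with 33.4% called). At 24 h it was 1.11 (limma, adjusted p = 0.0513, with 11% called), just outside the threshold, and it passed when the 4 early arrays were left out (limma, adjusted p = 0.0317), and when either array of the 0.5 h shoots, 6 h shoots or 3 h roots was (adjusted p = 0.0312 to 0.0473). Both later arrays lay above both 0.25 h arrays at 5 of 6 times in shoots, the exception being 6 h.

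Steps between successive shoot times were compared after the values had been seen. DFR rose at 3 h over 1 h by 1.10 (limma, adjusted p = 0.0348), a comparison with 20.3% of tested probe sets called. This call was lost without either 1 h array (1.12 and 1.08, adjusted p = 0.103 and 0.104) and without replicate 1 of 3 h (0.80, adjusted p = 0.262). Over the 4 early shoot arrays as a single group, DFR rose at 3 h by 1.13 ± 0.30 (limma, adjusted p = 0.0075). It then fell by 1.77 at 6 h relative to 3 h (limma, adjusted p = 0.0038), where 7.7% of probe sets were called and 0.825% changed by more. The fall kept its direction when any array was left out (-2.15 to -1.40) but was not called without replicate 1 of 3 h (-1.47, adjusted p = 0.0812) or replicate 2 of 6 h (-1.40, adjusted p = 0.0763). The change was 0.98 at 12 h relative to 6 h (limma, adjusted p = 0.074, with 14.3% called, and 0.0465 and 0.0462 without one or the other 0.5 h shoot array) and -0.27 at 24 h relative to 12 h (limma, adjusted p = 0.641, with 19.6% called). The summed shoot markers were 16798 and 15514 on the 3 h shoot arrays, against 19828 and 19993 at 0.25 h, and the summed root markers were 39.9 and 63.3 on the 3 h shoot arrays, against 53.0 and 62.5 at 0.25 h. Their part in the DFR result was not tested.

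**Figure D2:**
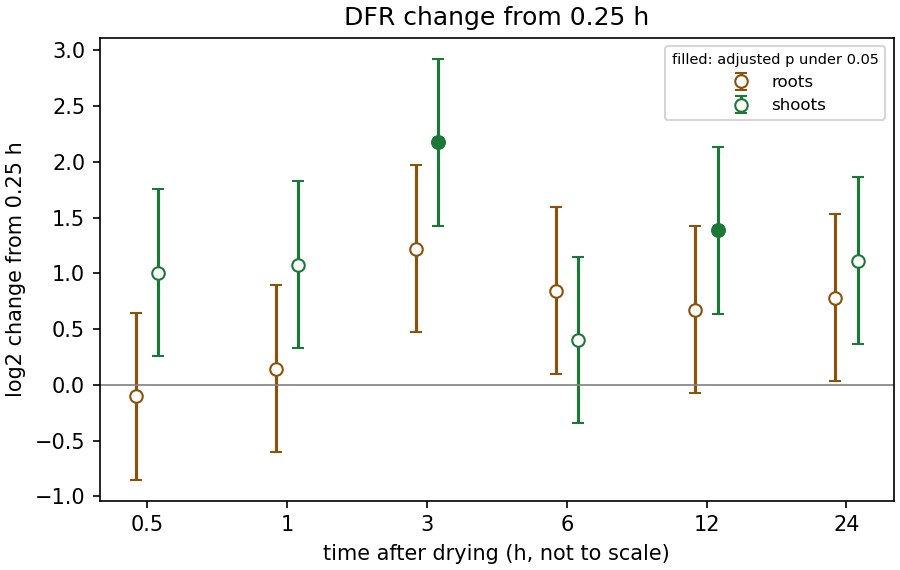
Change of DFR from 0.25 h at each later time, in log2 units, for roots and shoots; points are limma estimates from 2 arrays per group, bars are 95% confidence intervals and filled points have an adjusted p under 0.05. In shoots the estimates are 2.18 at 3 h and 1.38 at 12 h (both filled) with 0.40 between them at 6 h, and no root point is filled.

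In roots the DFR signal was at or below its array's 30th percentile on 11 of 14 arrays. The arrays read 7.36 and 6.76 at 0.25 h, 7.19 and 5.74 at 0.5 h, and 10.1 and 6.26 at 1 h. They read 12.8 and 27.8 at 3 h and 12.4 and 16.1 at 6 h. They read 9.78 and 15.6 at 12 h and 14.04 and 12.96 at 24 h. The group means were 7.06 ± 0.426, 6.46 ± 1.03, 8.18 ± 2.72, 20.3 ± 10.6, 14.3 ± 2.62, 12.7 ± 4.12 and 13.5 ± 0.760 in time order (SD, n = 2 each). Neighbours in the order of root means, which was 3 h, 6 h, 24 h, 12 h, 1 h, 0.25 h and 0.5 h from high to low, all overlapped. Both later arrays lay above both 0.25 h arrays at 4 of 6 times, from 3 h to 24 h.

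None of the 6 root changes was called. The largest was 1.22 ± 0.36 at 3 h (limma, adjusted p = 0.0665), where 3.58% of tested probe sets were called and 2.3% changed by more. Its size turned on replicate 2, which read 27.8 while replicate 1 read 12.8: the change was 1.73 without replicate 1 (adjusted p = 0.0254) and 0.72 without replicate 2 (adjusted p = 0.493). It also passed the threshold with the 4 early shoot arrays left out of the shared fit (limma, adjusted p = 0.0384), or either 0.5 h shoot array alone (adjusted p = 0.0396 and 0.0394). The summed shoot markers were 230 and 338 on the 3 h root arrays, against 349 and 308 at 0.25 h, and the summed root markers were 977 and 616, against 826 and 701. Replicate 2 of 3 h thus had the higher shoot marker sum and the lower root marker sum of the pair, and their part in the DFR value was not tested. The changes at the other times were -0.10 at 0.5 h, 0.14 at 1 h, 0.84 at 6 h, 0.67 at 12 h and 0.78 at 24 h (limma, adjusted p from 0.149 to 0.923). In those comparisons 4.81%, 6.84%, 10.3%, 7.88% and 2.21% of probe sets were called, in the same order.

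DFR was lower in roots than in shoots at all 7 times, and the highest root array (27.8, at 3 h) was below the lowest shoot array (32.8, at 0.25 h). Over all times the root signals ran from 5.74 to 27.8 with a median of 11.3, and the shoot signals from 32.8 to 210 with a median of 78.2. The root minus shoot difference was -2.08 at 0.25 h, -3.19 at 0.5 h, -3.01 at 1 h, -3.03 at 3 h, -1.64 at 6 h, -2.79 at 12 h and -2.41 at 24 h (limma, adjusted p from 2.26e-07 to 0.000502). The shoot mean signal was 3.50 times the root mean at 6 h and 12.2 times at 0.5 h, ratios that rest on root signals mostly at or below the 30th percentile of their arrays. With the 4 early shoot arrays as a single group, the difference was -3.22 at 0.5 h and -2.98 at 1 h (limma, adjusted p = 7.45e-09 and 2.48e-08). A difference between the organs was common, with 68%, 65.2%, 66.2%, 66.4%, 65.7%, 65.6% and 68.9% of tested probe sets called at the 7 times. The median of all probe sets lay 0.25 to 0.31 higher in roots on the log2 scale, opposite to DFR. In whole organs, fewer cells that make a transcript and less of it per cell cannot be told apart.

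The root change was set against the shoot change at each time, since a call in one organ alone does not show that the organs differ. The difference, root change minus shoot change, was -1.11 at 0.5 h, -0.93 at 1 h, -0.95 at 3 h, 0.44 at 6 h, -0.71 at 12 h and -0.33 at 24 h, each with a standard error of 0.50. None was called (limma, adjusted p from 0.256 to 0.802), and 1 had an unadjusted p under 0.05, that at 0.5 h. With the 4 early shoot arrays as a single group, it was -1.14 at 0.5 h and -0.90 at 1 h, and neither was called (limma, adjusted p = 0.182 and 0.323). The share of tested probe sets called in these comparisons was 2.12%, 2.98%, 10.9%, 16.9%, 15.8% and 3.23%. At 3 h the 95% interval ran from -2.01 to 0.10, so that equal changes in both organs lay inside it. With a pseudocount at the 30th percentile of all signals, which shrinks changes of dim transcripts, the difference at 3 h was -1.20 and was called (adjusted p = 0.0415).

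The genes around DFR were read from lists of the pathway. A listed gene counts as measured if the annotation used matched it to a probe set of that gene alone. Genes counted as not measured may still have a probe set on the array, since the annotation gave no gene for 8730 probe sets. Of 11 late anthocyanin genes, 5 were measured and all 5 passed the filter on low signals, DFR among them. The others are AT4G14090, known as the glucosyltransferase that adds glucose at the 5 position of anthocyanins, UF3GT, which adds xylose to the sugar at the 3 position, AT5MAT, an anthocyanin malonyltransferase, and UGT78D2, which adds glucose at the 3 position of anthocyanidins and flavonols alike. DFR is left out of the counts and medians that follow. In shoots 3 of the other 4 rose at 3 h and 0 fell, where 28.8% of all tested probe sets were called, and their median change was 1.80, against -0.02 over all tested probe sets. At 12 h 2 of the 4 rose and 0 fell (26.3% called over all), with a median of 1.13, against 0.01 over all. At 6 h 0 rose and 1 fell (33.4% called over all), with a median of 0.15, against 0.01 over all. At 24 h 1 rose (11% called over all), with a median of 0.66, while none was called at 0.5 h or 1 h (7.94% and 8.3% called over all), with medians of 0.64 and 0.49. Set against 3 h, 3 of the 4 fell at 6 h (7.7% called over all), with a median of -1.49, against 0.03 over all, but 1 did without replicate 1 of 3 h and 2 without replicate 2 of 6 h. In roots 1 of the 4 fell at 0.5 h and 1 at 6 h (4.81% and 10.3% called over all), both times UGT78D2, and none rose.

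AT4G14090 had shoot signals of 106 and 63.1 at 3 h, against 13.7 and 8.21 at 0.25 h, and rose by 2.73 ± 0.45 (limma, adjusted p = 0.000149). At 6 h it read 21.5 and 6.79, and it rose at 12 h by 2.30 (signals of 63.2 and 57.4; limma, adjusted p = 0.000812). Its arrays at 6 h thus overlap those of 0.25 h, while at 3 h and 12 h both lie above them, as for DFR. It also rose at 24 h by 1.80 (limma, adjusted p = 0.0152), a call lost without replicate 2 of 0.25 h (1.49, adjusted p = 0.127) or either 24 h array (1.57 and 2.04, adjusted p = 0.0987 and 0.0549).

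UF3GT had shoot signals of 173 and 93.9 at 3 h, against 29.5 and 19.7 at 0.25 h, and rose by 2.31 ± 0.37 (limma, adjusted p = 0.000113). It read 54.2 and 22.3 at 6 h, a change of 0.50 that was not called. It read 79.1 and 85.6 at 12 h, where it rose by 1.69 (limma, adjusted p = 0.00219). Between successive times UF3GT rose at 3 h over 1 h by 1.67 (adjusted p = 0.00328), fell at 6 h relative to 3 h by 1.81 (adjusted p = 0.00455) and rose at 12 h over 6 h by 1.19 (adjusted p = 0.0385). The first 2 of these steps were not called without replicate 1 of 3 h (1.24 and -1.38, adjusted p = 0.0708 and 0.108). The fall at 6 h was also not called without replicate 2 of 6 h (-1.21, adjusted p = 0.108), nor the last step without that array (0.58, adjusted p = 0.43) or either 12 h array (1.25 and 1.14, adjusted p = 0.108 and 0.177).

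AT5MAT was dim, with shoot signals of 37.2 and 30.1 at 3 h, against 12.4 and 12.9 at 0.25 h, and rose by 1.28 (limma, adjusted p = 0.0337). That call was lost when any 1 of the 0.25 h or 3 h shoot arrays was left out (adjusted p = 0.0812 to 0.16). UGT78D2 was not called at 3 h or 12 h: its shoot signals were 186 and 114 at 3 h, against 230 and 185 at 0.25 h, and 64.8 and 64.1 at 6 h, where it fell by 1.65 (limma, adjusted p = 4.18e-06). Its root signals were 133 and 120 at 0.5 h and 116 and 133 at 6 h, against 246 and 185 at 0.25 h, and it fell by 0.75 at 0.5 h and fell by 0.77 at 6 h (limma, adjusted p = 0.0436 and 0.0213). Both root calls were lost without replicate 1 of the 0.25 h roots (-0.54 and -0.57, adjusted p = 0.365 and 0.244) or without either array of the later time (adjusted p = 0.0606 to 0.277), and that at 0.5 h also without any 6 h or 24 h shoot array (adjusted p = 0.054 to 0.0557).

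**Figure D3:**
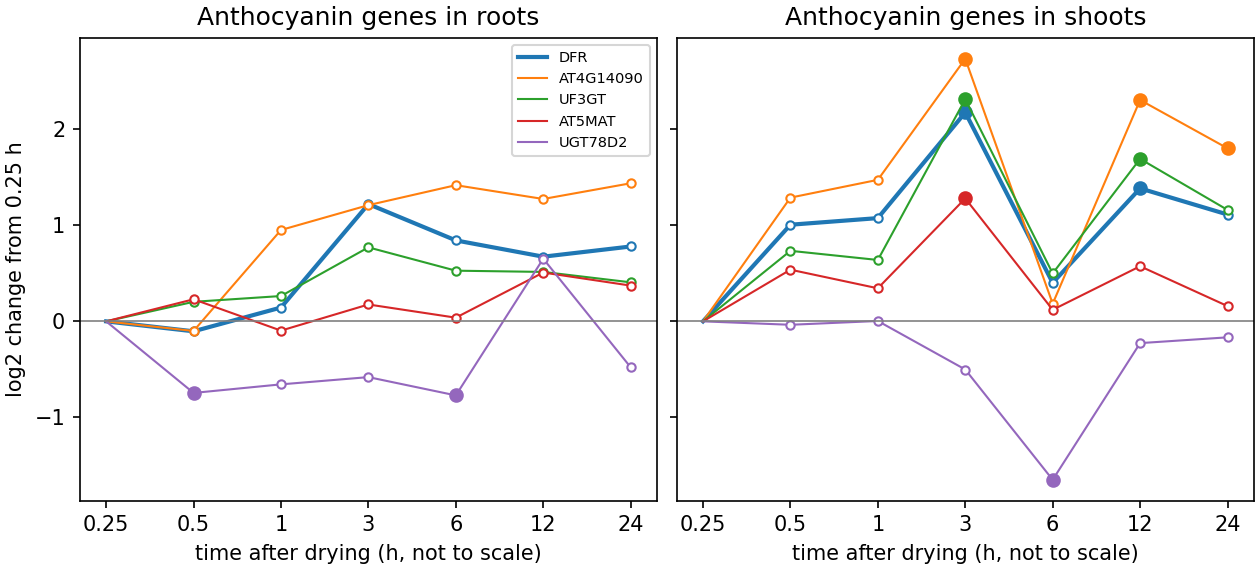
Change from 0.25 h in log2 units of the 5 measured late anthocyanin genes, roots at left and shoots at right; the thick line is DFR, and filled points have an adjusted p under 0.05. In shoots DFR, AT4G14090 and UF3GT are at 2.18, 2.73 and 2.31 at 3 h and at 1.38, 2.30 and 1.69 at 12 h, while UGT78D2 is at -1.65 at 6 h.

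Over the 7 shoot means, the log2 levels of AT4G14090, UF3GT and AT5MAT correlated with those of DFR at 0.96, 0.95 and 0.91, and those of UGT78D2 at 0.14. Over the 7 root means the values were 0.84, 0.93, 0.34 and 0.00. These are descriptions over 7 means that share the same arrays. At 3 h 3 of these 4 genes were lower in roots than in shoots, with differences of -1.75 for AT5MAT, -2.18 for UF3GT and -3.31 for AT4G14090 on the log2 scale, where 66.4% of probe sets were called, and at 0.25 h 1 was, AT4G14090 (-1.78, with 68% called).

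Upstream of DFR, 1 of 5 early flavonoid genes was measured, CHIL, a chalcone isomerase-like protein that assists chalcone synthesis. Its shoot signals were 23.5 and 27.4 at 6 h, against 144 and 126 at 0.25 h, and it fell by 2.32 ± 0.28 (limma, adjusted p = 2.47e-06). At 3 h it read 96.1 and 59.1 and fell by 0.82 (limma, adjusted p = 0.0328), a call lost without either 0.25 h array (adjusted p = 0.164 and 0.0704) or replicate 2 of 3 h (adjusted p = 0.343). At 3 h, therefore, DFR was above and CHIL below the baseline in the same samples. In shoots at 12 h CHIL was not called against 0.25 h (-0.46) and was called higher than at 6 h (1.86). In roots CHIL was called higher at 12 h (1.25), a call lost without replicate 2 of 0.25 h (0.84) or of 12 h (0.90). None of the 9 listed genes of the early phenylpropanoid steps was matched to a probe set by the annotation used.

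On the flavonol side, 3 of 7 listed genes were measured and 2 passed the filter. UGT78D1, a flavonol rhamnosyltransferase, had shoot signals of 309 and 261 at 3 h, against 175 and 160 at 0.25 h, and rose by 0.76 (limma, adjusted p = 0.00533), a call lost without replicate 1 of 3 h (0.64, adjusted p = 0.0645). At 12 h it read 373 and 366 and rose by 1.13 (limma, adjusted p = 0.000182). Between successive times UGT78D1 changed by -1.18 at 6 h relative to 3 h and by 1.56 at 12 h relative to 6 h. Both steps were called (7.7% and 14.3% called over all). Its correlation with DFR over the 7 shoot means was 0.76. In roots UGT78D1 rose at 12 h by 1.54 (limma, adjusted p = 3.05e-05). It was also called higher in roots at 0.5 h (0.67), a call lost without any 1 of the 0.25 h or 0.5 h root arrays, among others. AT1G06000, known as a flavonol rhamnosyltransferase acting at the 7 position, fell by 0.99 at 6 h in shoots (adjusted p = 0.0143) and rose by 0.99 at 12 h (adjusted p = 0.0179), and the first call was lost without replicate 1 of 0.25 h or either 6 h array (adjusted p = 0.0579 to 0.108), the second without replicate 2 of 0.25 h or either 12 h array (adjusted p = 0.0693 to 0.123). UGT78D3, the third, was listed between 0.27 and 6.98 and was not tested.

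Of 8 genes of the proanthocyanidin branch, 1 was measured: BAN, the anthocyanidin reductase of the seed coat. Its signals were 0.59 to 5.18 on root arrays and 0.45 to 1.46 on shoot arrays, and it did not pass the filter. Of 7 genes of the lignin branch, which draws on the same phenylpropanoid precursors, HCT was measured. It fell in shoots at 3 h by 0.78, at 6 h by 1.05 and at 12 h by 0.63 (limma, adjusted p = 0.000591, 1.83e-05 and 0.00399), with signals of 667 and 679 at 3 h against 1091 and 1225 at 0.25 h. In roots it rose at 1 h by 1.33 (limma, adjusted p = 5.05e-05). It was also called higher in roots at 6 h (0.76) and at 12 h (0.55). The 6 h call was lost without replicate 2 of the 6 h roots (0.53). The 12 h call was lost without any 1 of the 0.25 h or 12 h root arrays (0.51 to 0.58).

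Few regulators were matched to a probe set by the annotation used. Of 14 activators 1 was matched, HYH, a bZIP factor of light signalling related to HY5. Its shoot signals were 31.4 and 22.2 at 3 h and 8.54 and 9.96 at 6 h, against 176 and 130 at 0.25 h, and it fell by 2.43 at 3 h and fell by 3.78 at 6 h (limma, adjusted p = 3.74e-07 and 6.31e-10). Relative to 0.25 h it fell by 1.43 at 12 h (limma, adjusted p = 0.000139), and at 24 h it was also called lower (-1.01). The 24 h call was lost without replicate 1 of 0.25 h (-0.80) or replicate 2 of 24 h (-0.96). In roots HYH was called lower at 0.5, 1 and 6 h (-0.96, -0.90 and -1.22). These root calls were lost without replicate 1 of 0.25 h (-0.66, -0.60 and -0.92). Those at 0.5 and 1 h were also lost without either array of that time. Of 13 repressors 1 was measured, TRY, a single-repeat MYB protein that competes for the bHLH partner. It read 17.1 and 16.1 at 6 h in shoots, against 107 and 68.5 at 0.25 h, and fell by 2.24 (limma, adjusted p = 1.82e-05). At 12 h TRY was also called lower (-1.15), a call lost without replicate 1 of 0.25 h (-0.84) or replicate 2 of 12 h (-0.92). It was called higher at 12 h over 6 h (1.09) and at 24 h over 12 h (1.33). Both of these calls were lost without some of the arrays compared. The MYB, bHLH and WD40 activators of DFR themselves are not among the genes described here, since the annotation used matched none of them to a probe set. This does not show that the array lacks them.

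**Figure D4:**
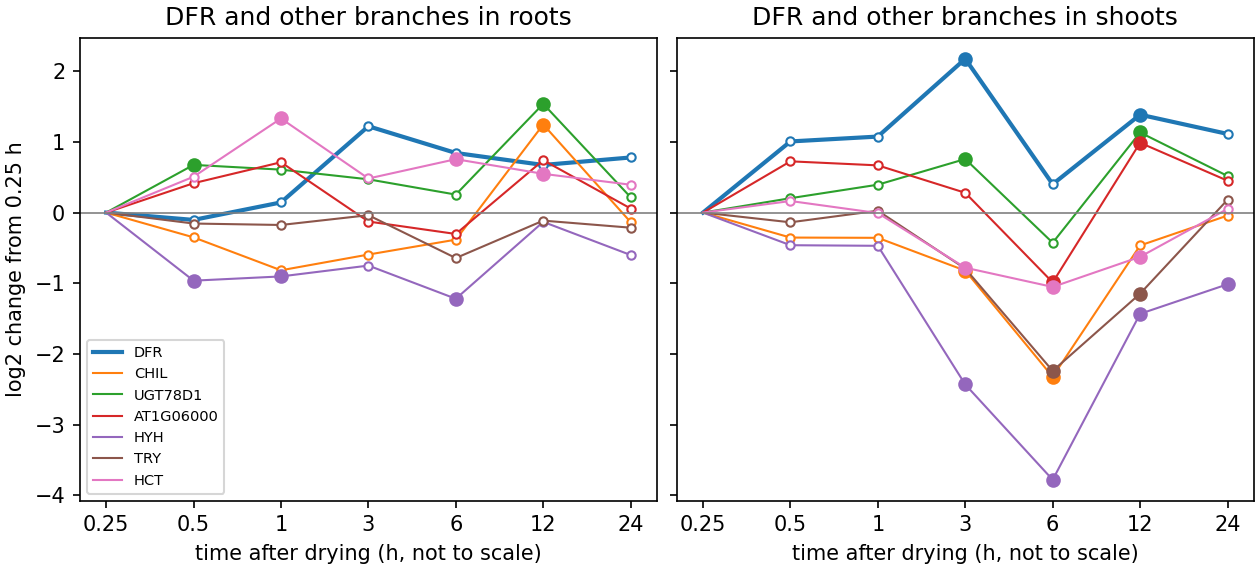
Change from 0.25 h in log2 units of DFR (thick line) and of measured genes upstream of it (CHIL), on the flavonol side (UGT78D1, AT1G06000), among regulators (HYH, TRY) and in the lignin branch (HCT), roots at left and shoots at right; filled points have an adjusted p under 0.05. At 3 h in shoots DFR is at 2.18 while CHIL is at -0.82 and HYH at -2.43, and at 6 h CHIL, TRY and HYH are at -2.32, -2.24 and -3.78.

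DFR belongs to a family of short-chain reductases, and 15 of 23 listed relatives were measured, of which 13 passed the filter. In shoots 1, 3, 4, 5, 4 and 0 of the 13 rose at 0.5, 1, 3, 6, 12 and 24 h, and 1 fell at 3 h and 1 at 6 h. Over all tested probe sets 7.94%, 8.3%, 28.8%, 33.4%, 26.3% and 11% were called at these times, so that 5, 6 and 4 of 13 called in either direction at 3, 6 and 12 h are near or little above the general share. The 5 calls at 3 h became 2 or 3 without any 1 of the 0.25 h, 3 h or 12 h shoot arrays. The 3 calls at 1 h became 0 without either 0.25 h shoot array or replicate 1 of the 1 h shoots, and the count at 0.5 h ran from 0 to 4 over the alternatives. The medians lay between 0.28 and 0.48 on the log2 scale. In roots 2 rose at 6 h and 1 at 12 h (10.3% and 7.88% called over all), and none fell. Those at 6 h were AT2G23910 (1.72) and AT5G19440 (0.83). The first was not called without replicate 2 of the 0.25 h roots (1.25) or either 6 h root array (1.82 and 1.62). The second was not called without replicate 2 of the 6 h roots (0.52).

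On the log2(signal + 1.93) scale the largest of these changes was that of AT2G23910 at 12 h in shoots. Its shoot signals were 24.7 and 18.6 at 6 h and 86.6 and 88.2 at 12 h, against 0.48 and 0.59 at 0.25 h, and it rose at 12 h (limma, adjusted p = 8.41e-08). The size of that rise depends on the pseudocount, since the 0.25 h signals lie below it: it was 5.18 as computed throughout, 2.85 with the pseudocount at the 30th percentile and 7.36 with none. In roots it read 251 and 500 at 12 h, against 41.1 and 20.6 at 0.25 h, and rose by 3.52 (limma, adjusted p = 4e-05). AT5G19440 rose in shoots by 1.18, 1.17 and 1.26 at 3, 6 and 12 h (limma, adjusted p = 4.9e-05, 3.61e-05 and 2.69e-05), with no return to the baseline at 6 h, where it read 275 and 278 against 119 and 125 at 0.25 h. Over the 7 shoot means AT2G23910 correlated with DFR at 0.08 and AT5G19440 at 0.54. The highest such correlation among the tested relatives was 0.60, that of AT1G09500. This gene was called higher in shoots at 3, 6 and 12 h (1.78, 1.82 and 2.37), and each of these calls was lost under some alternatives.

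Genes with a time course most like that of DFR were looked for among genes whose log2 means spanned at least 1. Over the 7 shoot means 3095 genes were compared and 11 had a correlation above 0.9. The 5 highest were AT2G22900 (0.97), AT2G04400 (0.97), AT4G14090 (0.96), AT2G28790 (0.96) and UF3GT (0.95), so that 2 of the 5 are late anthocyanin genes. AT2G28790 had a shoot mean of 319 at 3 h and 131 at 6 h, against 126 at 0.25 h. AT2G04400 had a shoot mean of 462 at 3 h and 224 at 6 h, against 200.2 at 0.25 h. AT2G22900 had a shoot mean of 87.6 at 3 h and 52.3 at 6 h, against 42.6 at 0.25 h.

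**Figure D5:**
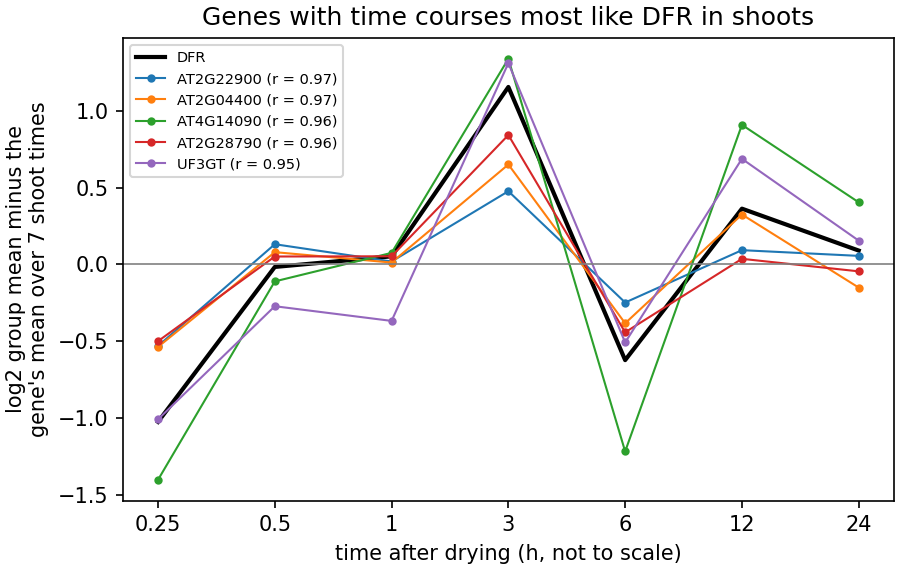
Log2 group means in shoots, each gene centred on its own mean over 7 times, for DFR (thick black line) and the 5 genes whose shoot course correlated best with it. All 6 courses are highest at 3 h and lower at 6 h, with correlations with DFR of 0.95 to 0.97.

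Over all 14 group means, which take in the difference between the organs, 726 of 7421 genes correlated with DFR above 0.9. The 5 highest were SWEET4, a sugar transporter (0.97), UGT84A3, a glucosyltransferase of hydroxycinnamic acids (0.96), AT4G14090 (0.96), AT2G40435 (0.96) and AT1G10980 (0.96). SWEET4 had a shoot mean of 75.3 at 3 h, against 18.6 at 0.25 h, and all its root group means lay between 6.20 and 9.52. UGT84A3 had a shoot mean of 146 at 3 h, against 24.6 at 0.25 h. These genes were picked for a course like that of DFR, so their levels at 3 h are a description. The 3 lowest were AT1G61667 (-0.97), TOPP7, a protein phosphatase (-0.96), and AT1G07550 (-0.96).

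Over the 7 root means 1912 genes were compared and 7 exceeded 0.9. The 5 highest were AT4G30660 (0.94), AT3G57770 (0.93), AT3G52070 (0.93), AT1G04770 (0.92) and AT1G55660 (0.92). UF3GT, one of the 5 of the shoots, correlated at 0.93 over the root means but was not compared there, as its root log2 means spanned less than 1. AT4G30660 had root means of 281 at 3 h and 303 at 6 h, against 135 at 0.25 h. The DFR course on the root side rests on signals of 5.74 to 27.8, and with Spearman's correlation in place of Pearson's 0 of these 5 remained among the highest 5.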

How the data were processed

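The deposited table holds array signal intensities on a linear scale for 28 ATH1 arrays. Per the submitters' processing notes, the authors made them with MAS5 (no version is given in the sources used here). Since the 2% trimmed mean was equal on every array, changes common to most transcripts are hidden. After removal of 64 control probe sets, 18190 were tested and 4556 were not, the criterion being a signal over the 30th percentile of the array in both replicates of some group. The pseudocount of 1.93 is the 10th percentile of all values. Means of 14 groups were fitted with limma 3.58.1 (R 4.3.3), using a trended prior and 14 residual degrees of freedom. Tests were two-sided, and p-values were adjusted by Benjamini-Hochberg within each comparison at 0.05. The fit was tested on simulated data.

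The platform annotation gave 1 gene for 13513 probe sets, several for 503 and none for 8730. Of the first, 13436 were found in the TAIR10.1 table, from which names and loci were taken. Listed genes were matched to probe sets by locus. Of 145 listed genes, 37 were matched to a probe set by this annotation, and the brightest stood for a gene. Named genes were DFR, measured list members, and the 5 genes most like DFR over all, shoot or root group means with the 3 least like it. The members and lists were chosen with earlier results of these data known. Alternatives changed the pseudocount, filter, scaling, arrays, weights, block and baseline. Steps between successive shoot times were added after seeing the data.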

Additional observations from a re-analysis of the deposited data

How the results depend on the processing

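With 2 arrays per group, small movements of the adjusted p decide several DFR calls. The rise in shoots at 3 h and the lower level in roots at all 7 times kept their direction and their call under every alternative run. With the pseudocount at the 30th percentile (13.4) these became calls: shoots at 1 h (0.89), at 24 h (0.92) and at 12 h over 6 h (0.84), and the root change minus shoot change at 3 h (-1.20). Shoots at 24 h (1.11) also became a call with the filter at the 50th percentile, with array weights, with the replicate block and with the 4 early shoot arrays left out or as 1 group. Roots at 3 h (1.22) became a call with array weights, with the replicate block and without the early arrays, as did shoots at 12 h over 6 h (0.98). The replicate block also made a call of shoots at 1 h (1.08), and the early arrays as 1 group made 1.04 a call for 0.5 h and 1 h. Shoots at 3 h over 1 h was lost without a pseudocount (1.12) and with array weights (1.10). Against the mean of 0.25 h and 24 h, shoots at 12 h was lost (0.83), and the uncalled changes of roots at 1 h (-0.25) and shoots at 6 h (-0.16) turned sign. The cause of these changes was not tested.

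Leaving out 1 array at a time gave -0.23 to 0.021 for roots at 0.5 h, -0.13 to 0.42 for roots at 1 h and 0.72 to 1.73 for roots at 3 h. In shoots it gave 0.51 to 1.502 at 0.5 h, 0.95 to 1.20 at 1 h, 1.25 to 1.51 at 12 h and 0.82 to 1.40 at 24 h. Between shoot times it gave 0.80 to 1.40 for 3 h over 1 h, -2.15 to -1.40 for 6 h over 3 h, 0.61 to 1.36 for 12 h over 6 h and -0.56 to 0.019 for 24 h over 12 h.

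Over all tested probe sets, replicate numbers showed little pairing of the samples. Deviations of same-numbered arrays correlated at a median of 0.03 in roots and -0.01 in shoots, with 3 of 42 pairs over 0.1. The lowest value was -0.58, between shoots at 0.5 h and 1 h. Between roots and shoots of the same time the median was -0.02, with 0 of 7 pairs over 0.1. These values do not speak of DFR alone, whose standard error was 0.31 with the replicate block, against 0.36 without it. The number of late anthocyanin genes other than DFR called in shoots stayed at 2 to 3 at 3 h and at 2 at 12 h, but ran from 0 to 2 at 24 h. Of 95 called changes of named genes, none reversed, and 271 of 3939 recomputed values lost the call. Many of the recomputed values left out an array of neither group compared, where the estimate cannot move. The share therefore does not tell how many of the 95 kept their call throughout. The count of all probe sets called also moved by over 1.5 times in several comparisons: in shoots it was 1444 at 0.5 h (560 to 2515 under the alternatives), 1510 at 1 h (362 to 2515), 5246 at 3 h (3375 to 6156), 4793 at 12 h (3185 to 5561) and 2005 at 24 h (654 to 2737), and in roots 651 at 3 h (213 to 995).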
